A study of Mus musculus with 6 samples.

Results

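The 9 genes described here are markers of oligodendrocytes, the myelin-forming cells of the brain, as they were recovered in immunoprecipitates aimed at the ribosomes of dopamine D2 receptor neurons. They were chosen by name, with earlier results of these data known, namely Mbp, Mobp, Mog, Mag, Cnp, Cldn11, Olig1, Olig2 and Sox10. The deposited table lists 38 transcripts for them out of 115220 transcripts of 47729 genes. The question was how much RNA of these genes the immunoprecipitates held and whether it differed between the knockout and its control. Every mouse was an adult male of the C57BL/6 strain, aged 2.5 to 3 months, and carried the D2Cre, LSL-Flag-Cas9 and RiboTag alleles, so that Cre recombinase made from a D2 receptor bacterial artificial chromosome switched on both the Cas9 nuclease and a hemagglutinin tag on the ribosomal protein Rpl22. The Ctrl group received an AAV carrying GFP in the medial prefrontal cortex (mPFC), and the Gsk3sKO group an AAV carrying GFP with a guide RNA against Gsk3b. Both groups therefore expressed Cas9 and tagged Rpl22, and the mPFC was collected 3 weeks after injection. Each group had 3 libraries. The labels do not say whether a library came from 1 mouse or a pool, and every p-value here therefore reflects the spread among the libraries, which may be technical.

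Oligodendrocytes wrap axons in a membrane that is compacted by Mbp, the basic protein on its cytoplasmic face, and by Mobp, another basic protein. Mag on the innermost membrane faces the axon, Mog lies on the outermost surface, Cnp is an enzyme of the uncompacted cytoplasmic channels, and Cldn11 forms the tight junctions between myelin layers. Olig1, Olig2 and Sox10 are the transcription factors that specify the lineage and drive the myelin genes. None of these genes is a marker of neurons, and some RNA of untagged cells is commonly carried along in a ribosome immunoprecipitation.

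The values are FPKM, that is, fragments per kilobase of transcript and per M mapped fragments, and a gene total is the sum over the listed transcripts of the gene. Between 40787 and 55841 transcripts per library were above 0, with the lowest counts in Gsk3sKO replicates 2 and 3. The spacing of the low values put the depth at about 28.5 M to 47.0 M reads, an estimate that is uncertain by a factor of 2. Gsk3b, the targeted gene, had totals of 35.6, 53.8 and 56.5 FPKM in Ctrl and of 36.9, 37.0 and 33.6 FPKM in Gsk3sKO (log2 fold change -0.40, adjusted p = 0.773 in limma). Its range in Ctrl began below 2 of the Gsk3sKO libraries. Its paralogue Gsk3a, which the guide was not made for, had a log2 fold change of 0.11. Drd2, which encodes the D2 receptor, ranged from 1.58 to 14.1 FPKM in Ctrl and from 5.96 to 8.32 FPKM in Gsk3sKO, and Rpl22 from 38.2 to 47.7 FPKM in Ctrl and from 36.6 to 89.6 FPKM in Gsk3sKO. No input RNA was analysed here, so enrichment over the tissue cannot be given.

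All 9 genes were present in the immunoprecipitates, at levels that differed widely between genes. The myelin proteins Mbp and Mobp had the highest gene totals in Ctrl, 37.8 ± 13.6 and 27.1 ± 5.58 FPKM (SD, n = 3), and their ranges overlapped. Cnp followed at 13.5 ± 2.58 FPKM, below every Mobp value and above every Mag value. Mag at 5.80 ± 1.20 FPKM and Cldn11 at 5.26 ± 0.246 FPKM overlapped. Below them lay Mog, whose 3 Ctrl values of 2.67 to 3.996 FPKM did not reach those of Cldn11, then Olig1 at 3.13 ± 0.609 FPKM and Sox10 at 2.24 ± 0.460 FPKM, with overlapping ranges from Mog to Olig1 and from Olig1 to Sox10. Olig2 was lowest, at 0.694 ± 0.255 FPKM, below every Sox10 value. The transcription factors were thus all less abundant per length than Cnp and than both basic proteins.

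The members fell into 2 sets by how their values lay in Ctrl and Gsk3sKO. Mog, Mag, Cnp and Cldn11, Cnp only narrowly, were lower in every Gsk3sKO library than in every Ctrl library. Of all gene totals tested, 8.3% were separated in this direction. Mbp, Mobp and the 3 transcription factors overlapped between the groups. None of the 8 members that passed the filter of a mean of 1 FPKM had an adjusted p under 0.05 in limma, which corrects over all 12874 gene totals tested and called 6 of them, 0.0466%.

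**Figure D1:**
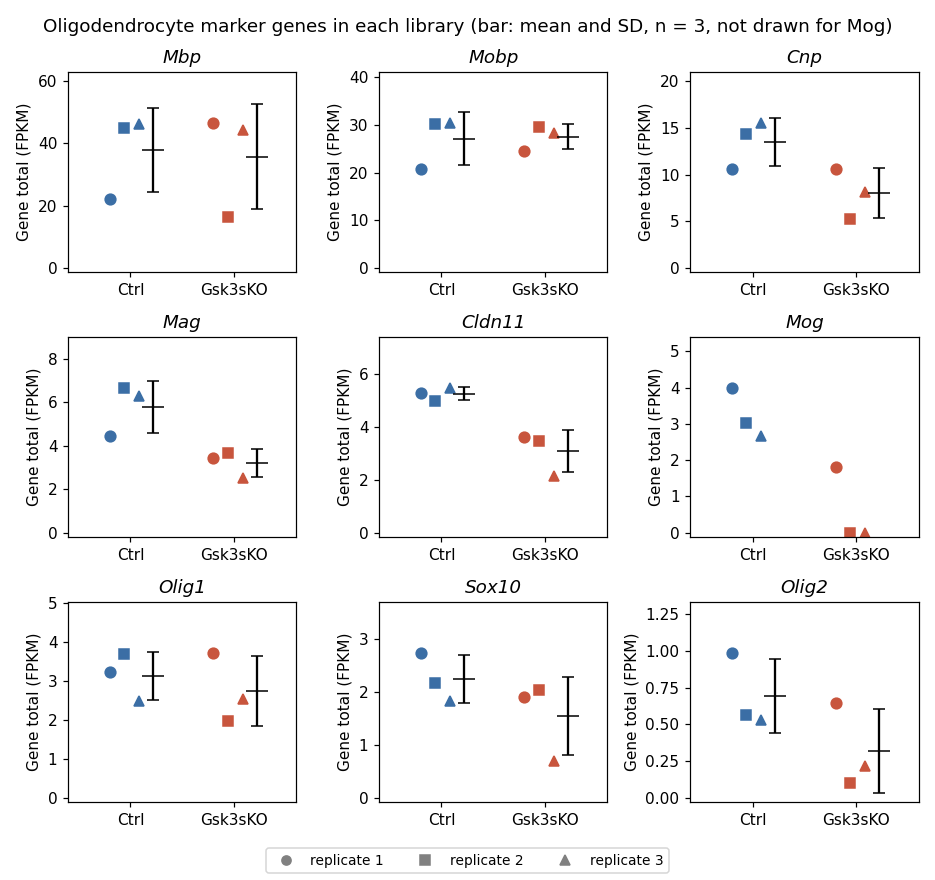
Gene total in FPKM of each of the 9 oligodendrocyte marker genes, with Ctrl in blue, Gsk3sKO in red and the replicate number as the symbol, and black bars for the mean and SD over 3 libraries. For Cnp, Mag, Cldn11 and Mog all red points lie below all blue points, by only 0.00518 FPKM in Cnp, and no mean is drawn for Mog because 2 of its libraries are listed at 0.

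Mog, the myelin oligodendrocyte glycoprotein, is encoded on chr17:37010743-37023398 of GRCm38, on the minus strand. In Ctrl, the totals of replicates 1 to 3 were 3.996, 3.02 and 2.67 FPKM. In Gsk3sKO they were 1.81, 0 and 0 FPKM. All 3 Ctrl libraries were thus above all Gsk3sKO libraries, by 0.865 FPKM, and Gsk3sKO replicates 2 and 3 were listed at 0. The log2 fold change on the log2(FPKM + 1) scale was -1.57 with an SE of 0.45 and a 95% interval of -2.60 to -0.55 (limma, unadjusted p = 0.00746, adjusted p = 0.607). With a pseudocount of 0.1 in place of 1 it was -3.62, since the size depends on how the values of 0 are treated. All of the signal was on ENSMUST00000102665, a coding transcript of 8 exons and 1704 bases, and the other listed transcript was at 0 in every library. The same 2 libraries had the fewest transcripts above 0, and the part of this in the Mog values was not tested. Of 9582 gene totals at 2.5 FPKM or more in every Ctrl library, a level chosen after the Mog values were seen, 12 were listed at 0 in 2 or 3 Gsk3sKO libraries. Most of the 12 were annotated as small nucleolar RNAs, and Mog and Gm20716 were the protein-coding ones. In the opposite direction, 0 of 9125 gene totals at that level in every Gsk3sKO library were listed at 0 in 2 or 3 Ctrl libraries.

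Mag, the myelin-associated glycoprotein, lies on chr7:30899176-30914873, on the minus strand, with 8 listed transcripts. Its total was 4.44, 6.67 and 6.30 FPKM in Ctrl and 3.44, 3.69 and 2.502 FPKM in Gsk3sKO. The lowest Ctrl value, in replicate 1, was 0.751 FPKM above the highest Gsk3sKO value. The mean was 5.80 ± 1.20 FPKM in Ctrl against 3.21 ± 0.624 FPKM in Gsk3sKO (SD, n = 3 each), a log2 fold change of -0.69 with an SE of 0.25 (limma, 95% interval -1.26 to -0.12, unadjusted p = 0.0234, adjusted p = 0.702).

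Cnp, the myelin phosphodiesterase, lies on chr11:100574904-100591729, on the plus strand. Its total was 10.6, 14.3 and 15.6 FPKM in Ctrl and 10.6, 5.21 and 8.14 FPKM in Gsk3sKO. The groups were separated by only 0.00518 FPKM, between Ctrl replicate 1 and Gsk3sKO replicate 1. The means of 13.5 ± 2.58 and 7.99 ± 2.70 FPKM gave a log2 fold change of -0.72 with an SE of 0.27 (limma, 95% interval -1.33 to -0.11, unadjusted p = 0.0256, adjusted p = 0.708). Cnp overlaps Dnajc7 on the opposite strand, and although the library kit keeps the strand, the strand setting of the quantification was not among the details read here.

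Cldn11, the claudin of myelin tight junctions, lies on chr3:31149920-31164324, on the plus strand, and has 1 listed transcript. Its values were 5.29, 4.99 and 5.48 FPKM in Ctrl and 3.62, 3.48 and 2.16 FPKM in Gsk3sKO. The Ctrl libraries were close to each other, and the nearest Gsk3sKO library was 1.38 FPKM below them. The log2 fold change was -0.63 with an SE of 0.24 (limma, 95% interval -1.19 to -0.08, unadjusted p = 0.0302, adjusted p = 0.732).

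Mog, Mag, Cnp and Cldn11 were therefore the 4 members of 8 tested with an unadjusted p under 0.05, all with the lower values in Gsk3sKO. Among all gene totals 5.2% were lower in Gsk3sKO at that threshold and 1.36% higher, that is 669 and 175 genes, or 528 and 276 after median ratio scaling of the libraries. Every Gsk3sKO library was below every Ctrl library in the same 4 members, against 8.3% of all gene totals. The members' median log2 fold change was -0.51 beside -0.06 over all gene totals, and 7 of the 8 values were negative. The count of 4 dropped to 1 without Ctrl replicate 2, to 1 without Ctrl replicate 3 and to 2 without Gsk3sKO replicate 3. Mog kept an unadjusted p under 0.05 in all 12 alternatives, Mag in 9 of 12, Cldn11 in 7 of 12 and Cnp in 9 of 13. None of the 8 had an adjusted p under 0.05 in limma, so a difference between the groups is not established. Were there one, fewer oligodendrocytes carried along and less RNA of these genes per cell could not be told apart in such bulk RNA.

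Mbp and Mobp, the most abundant members, showed no such separation. Mbp, on chromosome 18, had totals of 22.2, 45.0 and 46.4 FPKM in Ctrl and 46.7, 16.3 and 44.1 FPKM in Gsk3sKO. A single library in each group, Ctrl replicate 1 and Gsk3sKO replicate 2, was low, and the others lay close together. The log2 fold change was -0.15 with an SE of 0.42 and a 95% interval of -1.11 to 0.82 (limma, adjusted p = 0.957), and leaving out single libraries moved it from -0.48 to 0.33.

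Mobp, on chr9:120149707-120181484, had totals of 20.7, 30.2 and 30.5 FPKM in Ctrl and 24.6, 29.6 and 28.4 FPKM in Gsk3sKO. The 3 Gsk3sKO values fell inside the Ctrl range. The log2 fold change was 0.03 with an SE of 0.19 and a 95% interval of -0.39 to 0.46 (limma, adjusted p = 0.981). This interval overlaps those of Mag, Cnp and Cldn11 but not that of Mog, and the difference between genes was not tested.

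Olig1, Sox10 and Olig2, the lineage factors, overlapped between the groups. Olig1, a gene of 1 exon on chr16:91269772-91271933, was at 3.22, 3.69 and 2.48 FPKM in Ctrl and 3.72, 1.98 and 2.53 FPKM in Gsk3sKO, a log2 fold change of -0.16 with an SE of 0.28 (limma, adjusted p = 0.938). Sox10, on chr15:79154908-79165240, was at 2.73, 2.17 and 1.82 FPKM in Ctrl and 1.904, 2.03 and 0.688 FPKM in Gsk3sKO, a log2 fold change of -0.39 with an SE of 0.33 (limma, adjusted p = 0.866). Gsk3sKO replicate 3 alone was clearly below the others for Sox10. Olig2, on chr16:91225457-91228677, was at 0.988, 0.563 and 0.530 FPKM in Ctrl and 0.646, 0.0989 and 0.218 FPKM in Gsk3sKO. It did not pass the filter and was tested only without it, with a log2 fold change of -0.37 (limma, adjusted p = 0.798). Of its Gsk3sKO libraries only replicate 1 reached the Ctrl range.

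**Figure D2:**
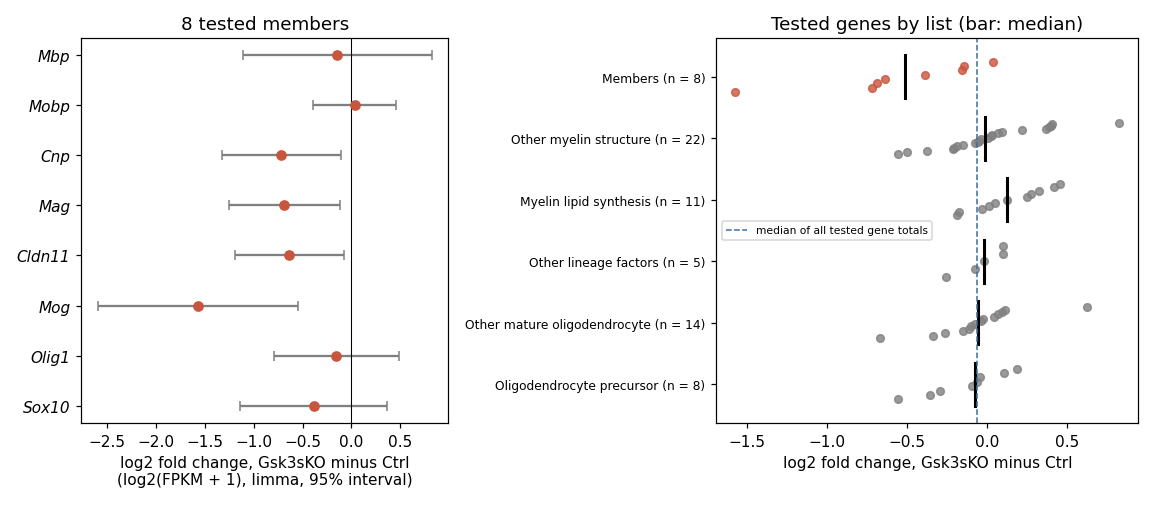
Left, log2 fold change (Gsk3sKO minus Ctrl, log2(FPKM + 1)) of the 8 tested members with the 95% interval from limma. Right, the same quantity for every tested gene of the members and of 5 lists of other oligodendrocyte genes, with black bars at the list medians and a dashed line at the median of all gene totals, where the members' median of -0.51 lies left of the other 5 medians, which range from -0.08 to 0.13.

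Other genes listed for the lineage were compared in the same way, though some of them are also expressed by other cells. Of 91 further genes in 5 lists, 60 passed the filter. At an unadjusted p under 0.05 in limma 0 of these were lower and 1 higher, beside 5.2% and 1.36% of all gene totals. At an adjusted p under 0.05 there were 0. Their log2 fold changes were negative in 32 and positive in 28, with a median of -0.03. In 0 of the 60 was every Gsk3sKO library below every Ctrl library, against 8.3% of all gene totals. In 2, Ermn and Car2, every Gsk3sKO library was above, against 3.71% of all gene totals.

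Among other structural myelin genes (22 tested, median -0.02), the most abundant included Tppp, Gpm6b and Omg. The log2 fold changes of Tppp, which organises microtubules, Gpm6b, a membrane glycoprotein, and Omg, a surface glycoprotein that neurons also make, were 0.03, 0.01 and 0.41. Ermn, an actin-binding protein of mature oligodendrocytes that was named after its values were seen, was at 2.55, 3.32 and 3.10 FPKM in Ctrl and 3.35, 4.42 and 5.10 FPKM in Gsk3sKO (limma, adjusted p = 0.809).

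The genes of myelin lipid synthesis (11 tested, median 0.13) included Hmgcs1 and Fdft1 of the cholesterol pathway, with log2 fold changes of 0.33 and 0.25. Enpp2 and the lipid transporter Abca2 were at 0.13 and 0.05. Among 14 tested genes enriched in mature oligodendrocytes (median -0.06), Car2, a carbonic anhydrase, was at 10.1, 12.2 and 8.22 FPKM in Ctrl and 15.7, 14.3 and 18.3 FPKM in Gsk3sKO. Its groups did not overlap, with the higher values in Gsk3sKO and a log2 fold change of 0.62 with an SE of 0.20 (limma, unadjusted p = 0.0124, adjusted p = 0.671). In the same list Stmn4, Ptgds and Qdpr had log2 fold changes of 0.07, -0.10 and -0.27.

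Other lineage transcription factors (5 tested, median -0.02) were led by Sox8, a relative of Sox10, with a log2 fold change of -0.26, then Zfp536 at 0.10 and Myt1 at -0.08. Genes of oligodendrocyte precursors (8 tested, median -0.08) were led by the proteoglycan Cspg5 at -0.29, Tnr at -0.06, Ptprz1 at 0.19 and Pcdh15 at -0.04. Several of these genes, such as Cspg5, Tnr, Gpm6b and Stmn4, are also expressed by neurons or astrocytes, so their levels are not those of oligodendrocytes alone. The medians of the structural and transcription factor lists turned to 0.04 and 0.02 after median ratio scaling, while that of the members stayed at -0.47.

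Markers of other cells varied as well. The summed FPKM of the 9 members was 74.2, 111 and 112 in Ctrl and 97.0, 62.4 and 88.7 in Gsk3sKO, and the groups overlapped because Mbp and Mobp carry most of the sum. As a share of all FPKM it was 0.0197% ± 0.00739 in Ctrl and 0.0205% ± 0.00424 in Gsk3sKO (SD, n = 3 each). As a share of the protein-coding gene totals it was 0.0338% ± 0.00771 in Ctrl and 0.0288% ± 0.00616 in Gsk3sKO, so the direction turned with the denominator, and both differences were within the SD. The most abundant RNA of each library took up 24.3%, 24.9% and 12.9% of all FPKM in Ctrl and 13.4%, 12.2% and 7.80% in Gsk3sKO. Whether it was the same RNA in every library was not checked, and its part in the shares was not tested. Summed markers of neurons in general were 2691 to 2857 FPKM in Ctrl and 2705 to 2880 FPKM in Gsk3sKO, led by Snap25 and Syt1, and none of the 10 was at 0. Astrocyte markers, led by Slc1a2 and Aldoc, summed to 185 to 232 FPKM in Ctrl and 192 to 240 FPKM in Gsk3sKO, with 0 of 10 at an unadjusted p under 0.05 and none at 0 in any library. Over all gene totals 5.2% were lower and 1.36% higher at that threshold in limma.

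Microglia markers summed to 42.2 to 53.9 FPKM in Ctrl and 31.4 to 41.3 FPKM in Gsk3sKO, ranges that did not overlap. Of 8 tested, C1qa and C1qb, which encode chains of a complement protein, were lower in Gsk3sKO at an unadjusted p under 0.05, beside 5.2% of all gene totals. The list's median was -0.41, and only Trem2 was listed at 0 in some libraries. Endothelial markers, led by Slco1a4 and Flt1, summed to 21.2 to 91.8 FPKM in Ctrl and 30.2 to 81.2 FPKM in Gsk3sKO, and the 4.33-fold range between libraries lay inside Ctrl. Excitatory neuron markers, led by Nrgn and Camk2a, had a median of -0.07 with 1 of 10, Tbr1, lower at an unadjusted p under 0.05. Inhibitory neuron markers, led by Sst and Gad1, had a median of 0.06 with 0 of 10. With 5.2% of all gene totals lower at that threshold, 1 of 10 does not set a list apart. The part of these differences in the members' values was not tested.

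**Figure D3:**
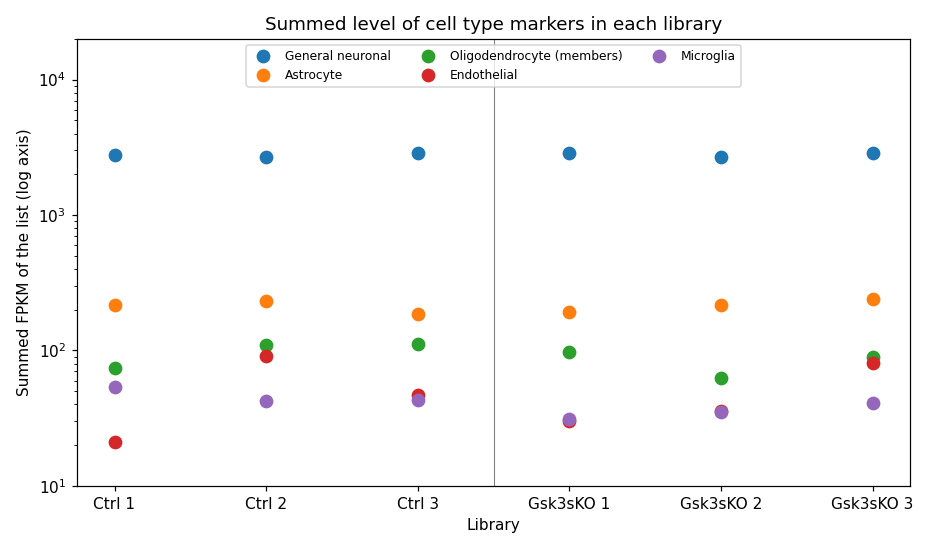
Summed FPKM (log axis) of the marker lists of 5 cell types in each of the 6 libraries, 3 Ctrl left and 3 Gsk3sKO right of the grey line. The 9 oligodendrocyte markers sum to 62.4 to 112 FPKM and overlap between the groups, the microglia markers do not, and the endothelial markers vary 4.33-fold, inside Ctrl.

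The single transcripts showed that gene totals hide large differences between libraries in the balance of transcripts of a gene. Of the 38 listed, 16 had a mean of at least 1 FPKM and were tested. Only ENSMUST00000102665 of Mog was lower in Gsk3sKO at an unadjusted p under 0.05 (limma, unadjusted p = 0.0242, adjusted p = 0.842), beside 3.75% of all 21584 transcripts tested. At an adjusted p under 0.05 there were 0% of transcripts, that is 0 of 21584 in limma, while 810 were lower and 390 higher at an unadjusted p under 0.05 and an ordinary linear model called 4 at an adjusted p under 0.05.

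Mbp has 16 listed transcripts, 4 of which begin at an upstream start, that of the longer golli transcripts also found in neurons, and 12 downstream. Those of the upstream start summed to 7.93, 13.8 and 15.7 FPKM in Ctrl and 15.5, 10.6 and 7.91 FPKM in Gsk3sKO. Those of the downstream starts, which give the classic myelin proteins, summed to 14.2, 31.1 and 30.7 FPKM in Ctrl and 31.2, 5.76 and 36.2 FPKM in Gsk3sKO. The low totals of Ctrl replicate 1 and Gsk3sKO replicate 2 were mainly low values of the downstream starts. There ENSMUST00000132369, the most abundant Mbp transcript, was listed at 0 in exactly these 2 libraries and at 27.0 and 26.3 FPKM in the other Ctrl and 27.1 and 32.0 FPKM in the other Gsk3sKO libraries. ENSMUST00000133193, which differs little from it in length (1922 against 1947 bases), was at 8.77 FPKM in Ctrl replicate 1, 1.12 FPKM in Gsk3sKO replicate 2 and at most 0.0963 FPKM elsewhere. A division of reads among transcripts so alike is an estimate, and the share of ENSMUST00000132369 in the total did not separate the groups (two-sided exact permutation test, p = 0.8, smallest possible 0.1).

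ENSMUST00000091789, the most abundant Mbp transcript of the upstream start, was at 7.38, 8.07 and 11.3 FPKM in Ctrl and 11.2, 7.95 and 7.498 FPKM in Gsk3sKO, with a log2 fold change of 0.00. It varied far less than ENSMUST00000132369. The log2 fold changes of the other tested Mbp transcripts were -0.92 for ENSMUST00000047865, 0.20 for ENSMUST00000080658, -0.11 for ENSMUST00000102812 and -0.72 for ENSMUST00000133193, each with overlapping groups.

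The composition of Mag also varied from library to library. ENSMUST00000187137, a coding transcript of 13 exons, carried 100%, 2.11% and 46.0% of the total in Ctrl and 50.6%, 100% and 99.6% in Gsk3sKO. In Ctrl replicate 2 most of the rest was ENSMUST00000191081 at 4.94 FPKM, which was 0 in Ctrl replicate 1 and in Gsk3sKO replicates 2 and 3. The log2 fold changes in limma were 0.30 (SE 0.65) for ENSMUST00000187137 and -0.65 (SE 0.81) for ENSMUST00000191081. Without Ctrl replicate 2 they were -0.37 and 0.076. Since both signs turned on a single library, these values cannot place the lower Mag total in Gsk3sKO on or off its main transcript. The share did not separate the groups (two-sided exact permutation test, p = 0.4).

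The shares of the main transcripts of Cnp and Mobp varied less than those of Mbp and Mag, though that of Cnp still ran from 61.7% to 87.3%. ENSMUST00000103120, the coding Cnp transcript, was at 6.88, 12.5 and 10.1 FPKM in Ctrl and 6.55, 3.80 and 6.86 FPKM in Gsk3sKO, with all Gsk3sKO values narrowly below all Ctrl values and a log2 fold change of -0.68. ENSMUST00000150414, annotated as a processed transcript of Cnp, had one of -1.05. Another, ENSMUST00000147403, was below the filter. It was at 3.94 FPKM in Gsk3sKO replicate 1, 1.12 FPKM in Ctrl replicate 2 and 0 elsewhere. For Mobp, ENSMUST00000174193 made up 80.7% to 91.6% of the total in every library, with a log2 fold change of 0.04, and ENSMUST00000068698 had one of 0.33. The annotation gives ENSMUST00000174193 as subject to nonsense-mediated decay. The shares of the main transcripts of Cnp and Mobp gave exact permutation p-values of 1 and 0.9, and after adjustment over the 4 genes compared all were 1.

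**Figure D4:**
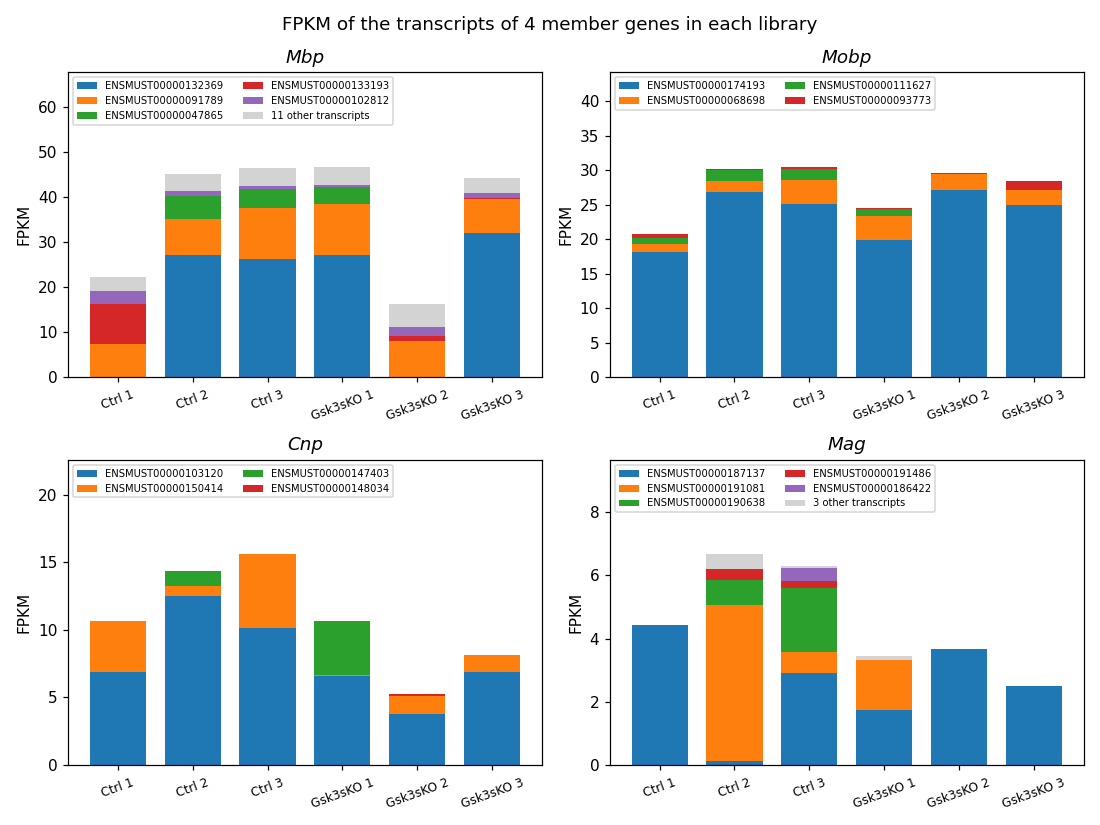
Stacked FPKM of the transcripts of Mbp, Mobp, Cnp and Mag in each library, with the 5 most abundant in colour and the rest in grey. The blue Mbp transcript is listed at 0 in Ctrl replicate 1 and Gsk3sKO replicate 2, the blue Mag transcript carries between 2.11% and 100% of its total, and the blue Mobp transcript 80.7% to 91.6%.

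The members also differed from each other in how they ran across the 6 libraries. On the centred log2(FPKM + 1) scale the mean profile of the 9 genes took the values 0.16, 0.34 and 0.28 in Ctrl and 0.07, -0.45 and -0.40 in Gsk3sKO. Gsk3sKO replicate 1 lay nearer to Ctrl than to the other Gsk3sKO libraries. Pearson's r of a member with this mean, which includes the member itself, was 0.96 for Mog, 0.93 for Cnp, 0.84 for Cldn11, 0.82 for Mag and 0.81 for Olig2. It was 0.69 for Olig1, 0.56 for Sox10, 0.46 for Mbp and -0.15 for Mobp, so the mean profile is not that of the most abundant members. The 10 gene totals outside the members most like it, with r of 0.988 to 0.998 over 6 libraries, were Snord59a, Wdfy2, Gm9836, Gabarapl2, Sf3a2, Gm26493, Gm24044, Snord57, Mrpl12 and Tet3. All 10 were lowest in Gsk3sKO replicates 2 and 3, which also had the fewest transcripts above 0. The depth of a library is common to all its genes, and its part in this likeness was not tested. Of 12866 gene totals 89 had an r above 0.95, and 0 of the 60 other oligodendrocyte genes were among them. With so low a share of all gene totals, this 0 does not set those 60 genes apart.

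The promoters of the 4 members with separated groups are shown beside that of Mobp, which overlapped, to give the DNA next to these values. They are the 250 bases before a RefSeq gene start (GRCm38.p6), 5′ to 3′ on the strand of the gene, and 6 of the 9 members had an entry. Capitals mark CTTTGT or its reverse complement ACAAAG, the core letters that Sox factors such as Sox10 are known to bind. The letters were searched on both strands and do not overlap each other.

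Mobp, chr9:120149492-120149741, plus strand: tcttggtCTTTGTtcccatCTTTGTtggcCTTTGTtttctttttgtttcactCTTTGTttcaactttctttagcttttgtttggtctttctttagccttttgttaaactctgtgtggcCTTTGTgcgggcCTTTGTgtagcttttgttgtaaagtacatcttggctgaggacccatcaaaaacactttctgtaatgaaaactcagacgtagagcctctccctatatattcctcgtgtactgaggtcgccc
Cnp, chr11:100574689-100574938, plus strand: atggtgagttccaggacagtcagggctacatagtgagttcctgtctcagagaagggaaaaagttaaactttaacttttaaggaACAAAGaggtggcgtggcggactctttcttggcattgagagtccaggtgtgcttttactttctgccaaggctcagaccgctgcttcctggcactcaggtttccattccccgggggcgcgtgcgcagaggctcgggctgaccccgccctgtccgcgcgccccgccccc
Mag, chr7:30914864-30915113, minus strand: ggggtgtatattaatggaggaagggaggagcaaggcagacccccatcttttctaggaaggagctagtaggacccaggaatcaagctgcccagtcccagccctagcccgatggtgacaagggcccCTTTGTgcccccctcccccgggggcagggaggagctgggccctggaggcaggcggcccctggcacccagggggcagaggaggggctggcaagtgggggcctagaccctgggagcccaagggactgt
Cldn11, chr3:31149670-31149919, plus strand: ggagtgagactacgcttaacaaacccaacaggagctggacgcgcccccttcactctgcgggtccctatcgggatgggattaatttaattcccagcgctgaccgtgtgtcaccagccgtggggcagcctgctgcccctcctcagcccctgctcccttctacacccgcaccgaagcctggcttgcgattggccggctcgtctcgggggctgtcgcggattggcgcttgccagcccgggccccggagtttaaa
Mog, chr17:37023399-37023648, minus strand: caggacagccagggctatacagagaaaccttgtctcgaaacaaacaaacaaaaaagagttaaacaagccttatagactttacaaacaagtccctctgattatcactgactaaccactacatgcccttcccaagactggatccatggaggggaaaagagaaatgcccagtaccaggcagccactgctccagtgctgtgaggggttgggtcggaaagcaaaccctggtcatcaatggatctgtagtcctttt

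Mobp held 6 of these motifs, Cnp and the Mag start shown held 1 each, and Cldn11 and Mog held 0. Of 32851 RefSeq promoters of this length 16.5% held at least 1 and 0.137% at least 3, and Mobp had the highest count, 6, reached by 1 promoter. Mobp was picked out after this count was seen. Mag has 3 entries, of which 2 hold the motif, and Olig2 has 0 motifs. A match is a description of the letters only.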

How the data were processed

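RNA bound to tagged ribosomes was measured in 3 Ctrl and 3 Gsk3sKO libraries, grouped by the submitters' labels. The authors deposited FPKM per transcript, and per the submitters' processing notes used HISAT2 2.1.0, SAMtools 1.9, StringTie 1.3.4d and GRCm38. Settings of these tools: not given in the sources used here. StringTie divides reads among overlapping transcripts, so transcript values of a gene depend on each other. The authors' own fold changes, p-values and q-values in the same table were not used. The table holds no read counts, and the spacing of its low values gave a rough depth.

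FPKM were summed by gene identifier. The test was limma's moderated linear model (version 3.58.1, under R 4.3.3, with a trend, 2-sided) on log2(FPKM + 1) for features with a mean of at least 1 FPKM over the 6 libraries, without covariates, and adjusted by the Benjamini-Hochberg method over all of them. A gene was called at an adjusted p under 0.05. Fold changes on this scale understate those of low genes. The model was tested on simulated data. Shares of a gene total were compared with a two-sided exact permutation test, whose smallest possible p is 0.1. Of the transcripts, 114237 were found in the GENCODE M21 annotation and 983 were not. Other steps ran in Python 3.11.15 with scipy 1.17.1, pandas 2.3.3, numpy 2.4.6 and, for plots, matplotlib 3.10.9.

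The alternatives were a pseudocount of 0.1, no filter, a filter at 5 FPKM, median ratio and upper quartile scaling, an ordinary linear model, the replicate number as a block, and leaving out each library in turn. The members and lists were chosen with earlier results of these data known. Genes named are the 9 members, their transcripts with a mean of at least 1 FPKM, the 4 most abundant genes of each other oligodendrocyte list and those with an unadjusted p under 0.05, the 10 totals most like the members' mean profile, the 2 most abundant markers of another cell type, and Gsk3b, Gsk3a, Drd2 and Rpl22. Others are named for groups that do not overlap (Ermn), for an unadjusted p under 0.05 (C1qa, C1qb, Tbr1) or for values at 0 (Gm20716, Trem2, ENSMUST00000147403 of Cnp). These were chosen after their values were seen. Some genes that this rule names are not reported here.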

Additional observations from a re-analysis of the deposited data

How the results depend on the processing

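No member had an adjusted p under 0.05 in limma in any alternative run. Requiring a mean of 5 FPKM left 3 members tested, with 1 lower at an unadjusted p under 0.05 and a median log2 fold change of -0.15. Leaving out single libraries gave 1 to 4 such members and medians of -0.62 to -0.41. Mag, Cnp and Cldn11 lost an unadjusted p under 0.05 without Ctrl replicate 2 or 3, Cldn11 also without Ctrl replicate 1, Cldn11 and Mag without Gsk3sKO replicate 3, and Cnp without Gsk3sKO replicate 2, each a fit with fewer samples. No pairing of the libraries by replicate number was seen (r of the deviations of same-numbered libraries -0.03, -0.01 and -0.08). With 3 libraries a group these values cannot exclude a pairing. The replicate block gave 3 members in place of 4 (Cldn11 at an unadjusted p of 0.0568 in limma), with the median at -0.51, as did the ordinary linear model, where Cnp left the count. Direction turned in members near 0. Leaving out single libraries moved the log2 fold change of Mbp between -0.48 and 0.33 and of Mobp between -0.14 and 0.13. For the Mbp transcripts it moved between -0.17 and 0.16 for ENSMUST00000091789 (0.027 under median ratio and 0.055 under upper quartile scaling), -0.10 and 0.40 for ENSMUST00000080658, -0.42 and 0.31 for ENSMUST00000102812, -1.28 and 0.35 for ENSMUST00000133193 and -1.50 and 1.74 for ENSMUST00000132369. For Mag it moved between -0.37 and 0.75 for ENSMUST00000187137 and -1.21 and 0.076 for ENSMUST00000191081, and for Mobp between -0.12 and 0.17 for ENSMUST00000174193. With 3 libraries a group and depth known only roughly, low values such as those of Olig2 and Mog are the least certain.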
